A study of Mus musculus with 6 samples.

Results

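The miR-101 family of the mouse was followed here through its hairpins Mir101a and Mir101b, in 6 small RNA libraries of J1 embryonic stem cells, a mouse line. Its members were chosen by name. Tags are the distinct read sequences of a library, each with a count of reads. The counts of tags of 18 to 26 bases that matched a hairpin exactly on the sense strand were summed by arm, start and length. Numbers and shares of tags below are sums of read counts, unless distinct sequences are named. The 2 hairpins are among 1174 mouse hairpins with a Mir symbol that were searched in the same way. The cells had received for 24 h either retinoic acid (1 µM), BIO (1 µM), CHIR99021 (3 µM) or the vehicle DMSO (1 µL), or else vitamin C (50 µg/ml) or the vehicle ddH2O (1 µL). Retinoic acid drives differentiation. BIO and CHIR99021 are inhibitors of GSK3, a kinase of the Wnt pathway, and vitamin C serves dioxygenases that act on histones and DNA. All cells were adapted to gelatin and grown with 1000 U/ml of leukemia inhibitory factor, which maintains the stem cell state, also under retinoic acid. Each group had 1 library, so no test between groups was possible, and every difference below lacks a replicate check.

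A microRNA hairpin is cut into a short duplex, and one of its strands, the 5p or 3p arm, is loaded into an Argonaute protein. The seed, bases 2 to 8 of the loaded strand, pairs with target messenger RNAs, so the position of the first base decides which targets a microRNA can recognise. In human cancer cells miR-101 is known for repressing EZH2, the histone methyltransferase of a Polycomb repressive complex, a complex that in embryonic stem cells holds developmental genes silent.

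In the mouse the family is encoded at separate places. Mir101a lies at chr4:101346945-101347027 on the minus strand of GRCm38, 83 bases within an exon (101346531 to 101347103) of the long noncoding RNA E130102H24Rik, which is on the same strand. Mir101b lies at chr19:29135279-29135375 on the plus strand, 97 bases within an intron of Rcl1, a gene for an RNA 3' cyclase-like protein of ribosome assembly, between exons that end at 29134503 and begin at 29143142. The RefSeq hairpins (GRCm38.p6) are printed here because the reads of both come from one arm. Capitals mark the annotated mature arms, 5p first and 3p second.
Mir101a hairpin: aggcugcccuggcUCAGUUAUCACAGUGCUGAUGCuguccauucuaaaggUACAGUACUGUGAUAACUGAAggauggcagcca
Mir101b hairpin: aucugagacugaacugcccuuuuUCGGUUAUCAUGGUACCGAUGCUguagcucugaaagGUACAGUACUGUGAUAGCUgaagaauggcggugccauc

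The annotated 3p strands do not begin at the same base, and so carry different seeds, in capitals here. RefSeq starts miR-101a-3p at a U and miR-101b-3p at the G before it.
mmu-miR-101a-3p: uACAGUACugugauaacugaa
mmu-miR-101b-3p: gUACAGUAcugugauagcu

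Positions below are counted from 1 at that G in both hairpins, so base 2 is the U. Within the 3p arm the hairpins differ at A17G and, beyond the end of most tags, at G24A, where the Mir101a base stands first. No tag matched both hairpins, as the tags cover base 17. Of the tags that matched Mir101a, 3 distinct sequences with 12 counts in all also matched Mir101c, another annotated hairpin (chr9:3038669-3038743, minus strand) that is not a member here, and were split between them.

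Nearly all family reads came from the 3p arms. Over the 6 libraries 112286 tags matched Mir101a, of which 99.984% were from the 3p arm, and 204838 matched Mir101b, of which 99.94% were. The 5p arms had 11 tags for Mir101a and 8 for Mir101b in all, with at most 2 in a library. Of the 4 arms, the 2 3p arms could therefore be measured, and nothing is said of the 5p arms. The antisense strand of both hairpins had 0 tags, and 2 family tags were longer than 26 bases. Apart from Mir101c, no other transcript of the GENCODE M21 annotation held a 3p tag except the host RNA of Mir101a.

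Libraries held between 18870345 and 23758363 tags, of which 729179 (retinoic acid) to 2155070 (DMSO) were microRNA tags. Levels are counts per 1000000 microRNA tags (CPM), so that at the depth of the retinoic acid library a count of 0 allows up to 4.11 CPM, and at that of DMSO up to 1.39 CPM. Intervals are 95% exact binomial (Clopper-Pearson) for levels and shares, and 95% exact conditional binomial for ratios. They cover counting error only, since PCR copies of a molecule could not be recognised and cultures were not replicated. The libraries carried the stem cell microRNAs of the miR-290 to miR-295 cluster: the 20 arms of that list, with miR-302 and miR-367, summed to 166556 CPM under retinoic acid and to between 269894 and 338992 CPM in the other libraries. miR-10a-5p, a retinoic acid-induced microRNA of a Hox cluster, had 57226 CPM under retinoic acid and 484 CPM in DMSO. For the BIO library the submitters state a loss of the raw data.

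Both 3p arms were abundant in every library, and miR-101b-3p was the higher one in each. miR-101b-3p stood at 20578 CPM in the retinoic acid library, 13858 in BIO, 20499 in CHIR99021 and 22842 in DMSO, and at 23370 in vitamin C and 21693 in ddH2O. It ranked between 11 and 17 among the arms with tags, of which a library had 853 to 989. The BIO library lay apart on the low side, and the other libraries lay within 20499 to 23370 CPM, with overlapping counting intervals for retinoic acid (20253 to 20906) and CHIR99021 (20267 to 20733).

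miR-101a-3p stood at 7441 CPM in the retinoic acid library, 9727 in BIO, 13446 in CHIR99021 and 10900 in DMSO, and at 11805 in vitamin C and 12241 in ddH2O. Its rank ran between 17 and 30. Here retinoic acid was the lowest library and CHIR99021 the highest, and the vehicle libraries lay between them. The counting intervals of neighbouring libraries in this order did not overlap, the narrowest gap being between vitamin C (11651 to 11960) and ddH2O (12078 to 12405).

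Together the arms made up 2.8% of the microRNA tags under retinoic acid, 2.36% in BIO, 3.39% in CHIR99021 and 3.37% in DMSO, and 3.52% in vitamin C and 3.39% in ddH2O. In CPM the sum was 28019 under retinoic acid and 23584 in BIO, against 33743 in DMSO, and 33945 in CHIR99021. The levels plot shows both arms below DMSO under retinoic acid, and in BIO mainly miR-101b-3p.

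**Figure D1:**
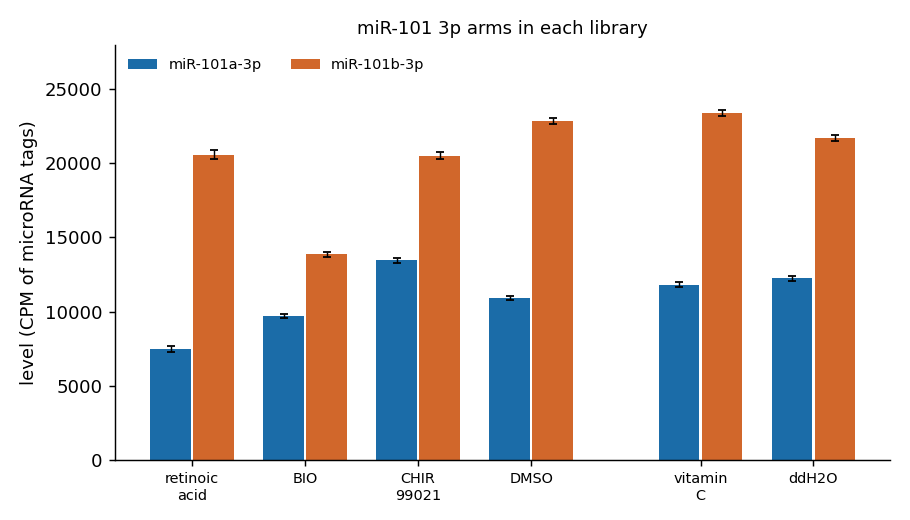
Level of miR-101a-3p (blue) and miR-101b-3p (orange) in each library, in CPM from 0; bars are single libraries and error bars are 95% exact binomial intervals that cover counting error only. miR-101b-3p is lowest in BIO (13858 CPM) and miR-101a-3p is lowest under retinoic acid (7441 CPM).

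An arm was called changed when its CPM differed at least 2-fold, the interval of the ratio excluded 1 and the higher library reached 10 CPM. By this rule 0 of the 2 arms were called in each of the 6 comparisons. Among all arms the rule called 40.9% for retinoic acid over DMSO, 7.20% for BIO over DMSO, 18.5% for CHIR99021 over DMSO, 7.20% for vitamin C over ddH2O, 13.8% for CHIR99021 over BIO and 7.23% for ddH2O over DMSO. No p-value stands behind these calls, as each compares a pair of libraries.

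Under retinoic acid miR-101a-3p was 1.46-fold lower than in DMSO (interval 1.42 to 1.51) and miR-101b-3p was 1.11-fold lower (1.09 to 1.13). The median arm of this comparison had a log2 ratio of 0.46, with the middle 50% of arms between -0.16 and 1.31, so that miR-101a-3p at -0.55 lay below that span and miR-101b-3p at -0.15 near its lower edge. TMM scaling, which moved all log2 ratios of this comparison by -0.51, put miR-101a-3p at -1.06 and miR-101b-3p at -0.66, and the first was then called, beside 36.6% of all arms under that scaling. Scaled to all tags, a shift of -1.6 for every arm, they stood at -2.15 and -1.75 and both were called lower, beside 64.7% of all arms, most of them lower. With tags of 20 to 24 bases alone, miR-101b-3p was at 0.1, above DMSO.

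In BIO the order was the other way: miR-101b-3p was 1.65-fold lower than in DMSO (1.62 to 1.67) and miR-101a-3p 1.12-fold lower (1.1 to 1.14). Over all arms the median log2 ratio was -0.09 and the middle 50% ran between -0.39 and 0.17, with miR-101b-3p at -0.72 below it and miR-101a-3p at -0.16 inside it.

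CHIR99021, which inhibits the same kinase as BIO, had miR-101b-3p 1.11-fold lower than DMSO (1.1 to 1.13) and miR-101a-3p 1.23-fold higher (1.21 to 1.26). Scaled to all tags, a shift of -0.93 for every arm, both were lower, miR-101a-3p at a log2 ratio of -0.62 and miR-101b-3p at -1.08, and the second was called, beside 54.0% of all arms. With tags of 20 to 24 bases alone, miR-101b-3p was above DMSO, at 0.21. The inhibitors were used at different doses, 3 µM and 1 µM. Set directly against BIO, the CHIR99021 library had 1.38-fold more miR-101a-3p (1.36 to 1.41) and 1.48-fold more miR-101b-3p (1.46 to 1.5), while scaling to all tags put both below BIO, at log2 ratios of -0.18 and -0.08. Per microRNA tag the log2 ratios were 0.47 for miR-101a-3p and 0.56 for miR-101b-3p, above the middle 50% of arms (-0.42 to 0.33).

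Vitamin C moved the levels little: miR-101b-3p was 1.08-fold higher than in ddH2O (1.06 to 1.09) and miR-101a-3p 1.04-fold lower (1.02 to 1.06). Scaled to all tags, miR-101a-3p was on the other side, at a log2 ratio of 0.04. Between the vehicle libraries miR-101b-3p differed by less, 1.05-fold lower in ddH2O than in DMSO (1.04 to 1.07), and miR-101a-3p by more, 1.12-fold higher (1.1 to 1.14), though lower at a log2 ratio of -0.24 when scaled to all tags. BIO, CHIR99021 and retinoic acid share the DMSO library, so that their ratios are not independent.

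**Figure D2:**
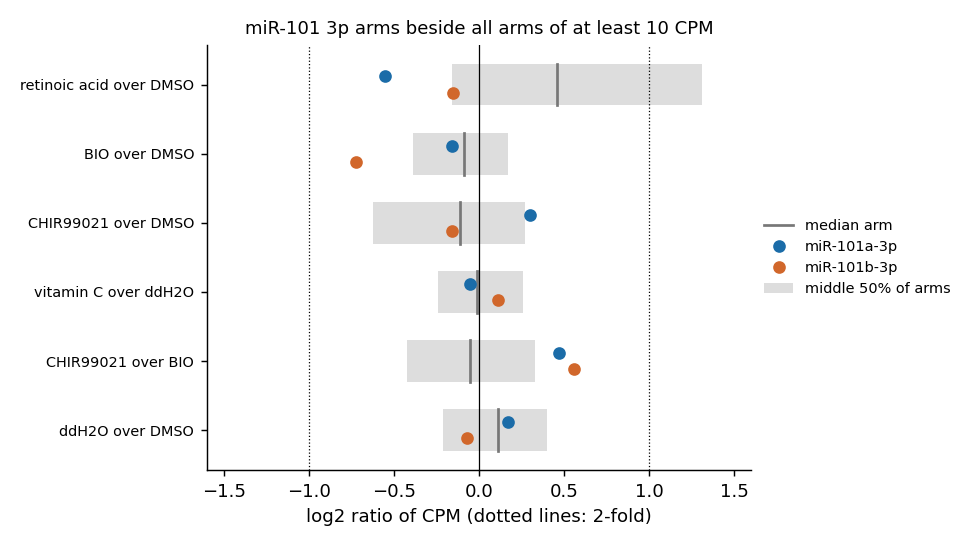
Log2 ratio of miR-101a-3p (blue) and miR-101b-3p (orange) in each comparison, beside the median (grey line) and the middle 50% (grey bar) of all arms of at least 10 CPM; dotted lines mark 2-fold. All points lie between the dotted lines; miR-101b-3p is at -0.72 for BIO over DMSO and miR-101a-3p at -0.55 for retinoic acid over DMSO.

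The balance between the hairpins differed between libraries. There were 2.77 miR-101b-3p tags per miR-101a-3p tag under retinoic acid (2.68 to 2.85), 1.42 in BIO (1.4 to 1.45), 1.52 in CHIR99021 (1.5 to 1.55) and 2.1 in DMSO (2.06 to 2.13), and 1.98 in vitamin C (1.95 to 2.01) and 1.77 in ddH2O (1.74 to 1.8). Over all tags of the arms, retinoic acid lay above both vehicle libraries and both GSK3 inhibitors below them. This ratio needs no scaling between libraries, but it does depend on which tags are counted, as the 3' ends below show. Among tags that ended at base 21 or after, BIO lay between the vehicles, while retinoic acid stayed above them and CHIR99021 below. There miR-101b-3p and miR-101a-3p had 9027 and 8925 CPM in BIO, 8055 and 8440 in DMSO and 10912 and 10558 in ddH2O. Retinoic acid had 9150 and 6265 CPM, and CHIR99021 10254 and 11532.

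At the base that separates the hairpins, few tags had a base that neither hairpin carries. Among tags of the arm with base 17, those with C or T there, which neither hairpin carries, were between 0.0142% (ddH2O) and 0.0326% (vitamin C). The values cover substitutions to C or T alone. An exchange of A and G, the bases that tell the hairpins apart, cannot be seen in them. The share of miR-101a-3p in the family's tags was 26.6% to 41.2%.

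Counted over all 3' ends, most 3p tags of both hairpins began at the G of base 1, upstream of the annotated start of miR-101a-3p. A minority began at the U of base 2. The main tags are given here as read, in DNA letters, with the seed in capitals, since each hairpin yields both seeds.
miR-101a-3p, bases 1 to 22: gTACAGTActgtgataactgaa
miR-101a-3p, bases 1 to 21: gTACAGTActgtgataactga
miR-101a-3p, bases 2 to 22: tACAGTACtgtgataactgaa
miR-101a-3p, bases 1 to 19: gTACAGTActgtgataact
miR-101b-3p, bases 1 to 19: gTACAGTActgtgatagct
miR-101b-3p, bases 1 to 22: gTACAGTActgtgatagctgaa
miR-101b-3p, bases 2 to 23: tACAGTACtgtgatagctgaag
miR-101b-3p, bases 2 to 19: tACAGTACtgtgatagct

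The first of these, 22 bases from the upstream start, was the most abundant tag of miR-101a-3p, with 44.2% of its tags over all libraries. The annotated strand of miR-101a-3p, bases 2 to 22, came after it and the 21-base form, with 14.7%. For miR-101b-3p the annotated strand of 19 bases was the most abundant tag with 32.5%, followed by the 22-base form with 17.8% and by the 22-base form from the U with 10.9%.

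Start use hardly varied between treatments. Of the miR-101a-3p tags, 77.2% began at base 1 under retinoic acid, 79.5% in BIO, 78.6% in CHIR99021 and 79.0% in DMSO, and 77.7% in vitamin C and 77.9% in ddH2O. Of the miR-101b-3p tags, 66.2% did so under retinoic acid, 65.6% in BIO, 66.9% in CHIR99021 and 69.7% in DMSO, and 66.7% in vitamin C and 65.3% in ddH2O. The hairpins thus differed from each other in every library, by more than any library differed from another for the same hairpin. For miR-101b-3p the lead of base 1 came from the shorter forms. Of its tags ending at base 19, 77.5% (retinoic acid and vitamin C) to 82.0% (BIO) began at base 1. Of those ending at base 22 or after, 46.3% (vitamin C) to 51.7% (BIO) did. In miR-101a-3p 72.0% (vitamin C) to 76.3% (BIO) of the tags ending at base 22 or after began at base 1. Starts at base 3 made up 0.75% to 1.1% of miR-101b-3p and 0.0213% to 0.0514% of miR-101a-3p.

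**Figure D3:**
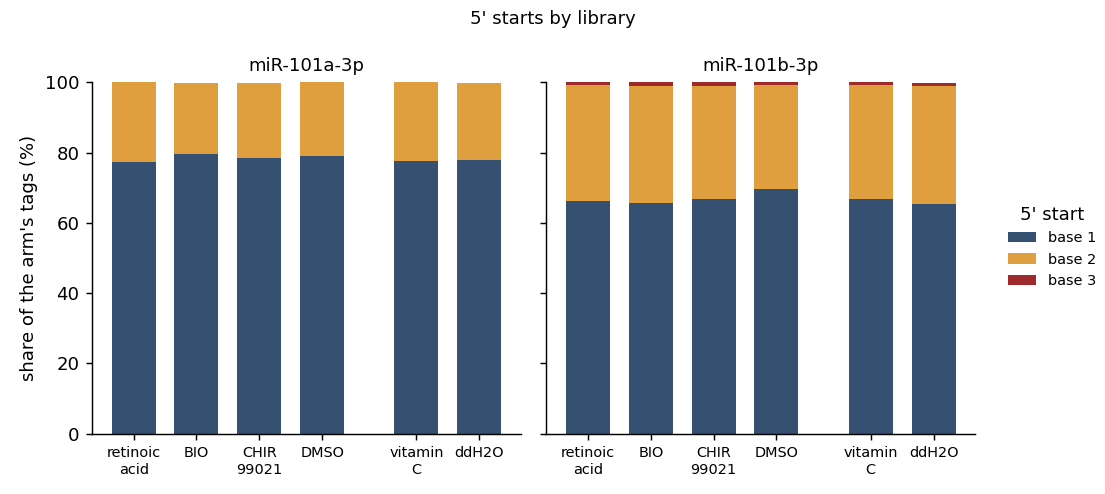
Share of the tags of each 3p arm, in percent, that began at base 1, 2 or 3 in each library; base 1 is the G upstream of the annotated start of miR-101a-3p. miR-101a-3p has 77.2% to 79.5% at base 1 and miR-101b-3p 65.3% to 69.7%.

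Counted by seed over both hairpins, TACAGTA, that of the base 1 start, had 69.1% of the family's tags under retinoic acid, 71.3% in BIO, 71.6% in CHIR99021 and 72.7% in DMSO, and 70.4% in vitamin C and 69.9% in ddH2O. ACAGTAC, the seed of the base 2 start, had 30.2% under retinoic acid, 28.0% in BIO, 27.8% in CHIR99021 and 26.8% in DMSO, and 29.1% in vitamin C and 29.5% in ddH2O. These shares pool all 3' ends. In CPM the base 2 seed ran between 6605 (BIO) and 10238 (vitamin C). Of the tags with this seed, 20.1% (retinoic acid) to 30.4% (CHIR99021) came from Mir101a, so most of the seed that RefSeq assigns to miR-101a-3p came from the Mir101b hairpin in every library.

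Such mixed starts were uncommon among other microRNAs. Of 208 arms with at least 100 CPM in every library, the median arm had 1.31% to 1.44% of its tags away from its main start, against 30.3% to 34.7% for miR-101b-3p and 20.5% to 22.8% for miR-101a-3p. Between 16 and 20 arms exceeded the first and 25 to 31 the second, by library.

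What did vary between libraries was the 3' end. Tags that ended at base 19 made up 42.5% of miR-101b-3p under retinoic acid (41.7 to 43.2), 25.4% in BIO (24.9 to 25.9), 39.0% in CHIR99021 (38.5 to 39.6) and 51.0% in DMSO (50.6 to 51.5), and 45.0% in vitamin C (44.5 to 45.4) and 37.4% in ddH2O (36.9 to 37.9). For miR-101a-3p this end was rarer, with 11% under retinoic acid, 4.95% in BIO, 9.64% in CHIR99021 and 15.9% in DMSO, and 12.7% in vitamin C and 8.95% in ddH2O. In both arms DMSO was the highest library and BIO the lowest, and the vehicle libraries differed from each other.

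The arms had their main ends at different places. miR-101a-3p ended most often at base 22, in 54.3% (DMSO) to 65.3% (BIO) of its tags. miR-101b-3p had a first peak at base 19 and a second at base 22. Its most common length was 22 bases in BIO and 19 bases in the other libraries, and its mean length was 20.16 bases under retinoic acid, 20.77 in BIO, 20.32 in CHIR99021 and 19.91 in DMSO, and 20.06 in vitamin C and 20.33 in ddH2O. The mean length of miR-101a-3p ran between 20.97 bases in DMSO and 21.34 in BIO.

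**Figure D4:**
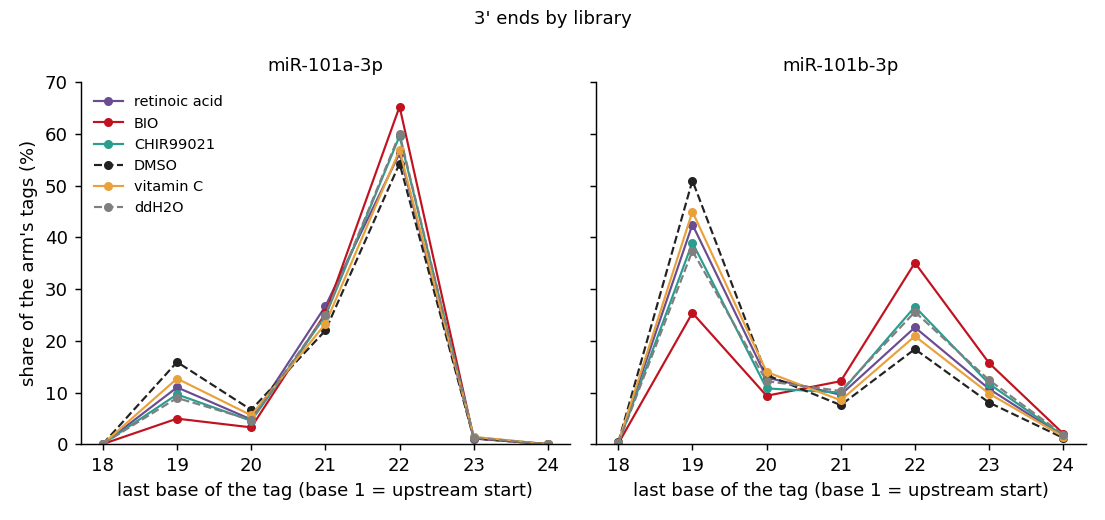
Share of the tags of each 3p arm, in percent, by the last base of the tag, with lines for the 6 libraries (dashed for the vehicles). The libraries separate at base 19, where miR-101b-3p runs between 25.4% in BIO and 51.0% in DMSO, and miR-101a-3p between 4.95% in BIO and 15.9% in DMSO.

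The start of a tag went with its end. Of the miR-101b-3p tags from base 2, 26.7% (DMSO) to 46.2% (BIO) ended at base 23, against 0.0815% (vitamin C) to 0.171% (retinoic acid) of those from base 1. Those from base 1 ended at base 22 in 18.9% (DMSO) to 41.5% (BIO). A 22-base tag was thus common from either start. In miR-101a-3p the end also moved with the start, but by less in share. Base 23 ended 4.77% to 6.29% of its base 2 tags, against 0.0239% (retinoic acid) to 0.0492% (BIO) of those from base 1. Base 22 ended 64.1% to 71.3% of its base 2 tags and 51.2% (DMSO) to 63.7% (BIO) of its base 1 tags. The files hold tags of 18 bases or more, so that products from base 2 that end before base 19 were not seen.

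The lower miR-101b-3p of the BIO library lay in the shorter forms. Forms that ended at base 20 or before had 11428 CPM under retinoic acid, 4831 in BIO, 10245 in CHIR99021 and 14787 in DMSO, and 13852 in vitamin C and 10782 in ddH2O. Forms that ended at base 21 or after had 9150 CPM under retinoic acid, 9027 in BIO, 10254 in CHIR99021 and 8055 in DMSO, and 9518 in vitamin C and 10912 in ddH2O. The shorter forms were 3.06-fold lower in BIO than in DMSO (2.99 to 3.13), while the longer ones were 1.12-fold higher (1.1 to 1.14), or slightly lower, at a log2 ratio of -0.12, when scaled to all tags. With tags of 20 to 24 bases alone, the log2 ratio of miR-101b-3p for BIO over DMSO was -0.03.

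miR-101a-3p divided in the same way. Its shorter forms had 1178 CPM under retinoic acid, 802 in BIO, 1915 in CHIR99021 and 2460 in DMSO, and 2163 in vitamin C and 1684 in ddH2O. They were 3.07-fold lower in BIO than in DMSO (2.9 to 3.24), and the longer forms were 1.06-fold higher (1.04 to 1.08), at 8925 CPM in BIO and 8440 CPM in DMSO, but at a log2 ratio of -0.20 when scaled to all tags. The shorter forms of both arms stayed lower in BIO than in DMSO under TMM, median-of-ratios and all-tag scaling, with log2 ratios of -1.89 (all tags) and -1.48 (median of ratios) at the ends of the range for miR-101b-3p. As the shorter forms made up 22.6% of miR-101a-3p and 64.7% of miR-101b-3p in DMSO, the same fold lowered the sum of the second arm more.

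**Figure D5:**
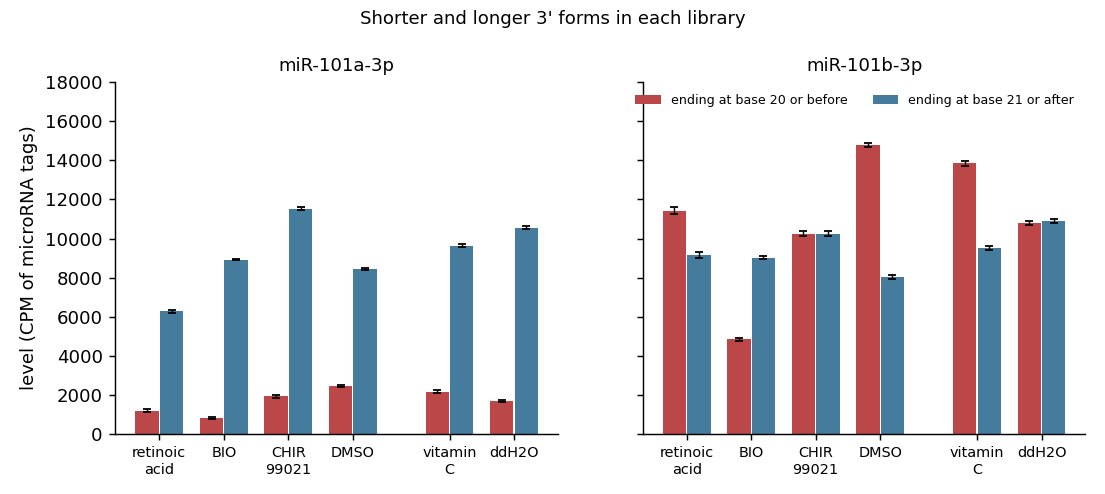
Level of the forms of each 3p arm that ended at base 20 or before (red) and at base 21 or after (blue) in each library, in CPM from 0, with 95% exact binomial intervals of the share. For miR-101b-3p the shorter forms stand at 4831 CPM in BIO and 14787 CPM in DMSO, and the longer forms at 9027 CPM in BIO and 8055 CPM in DMSO.

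Retinoic acid was different. The longer forms of miR-101a-3p were 1.35-fold lower than in DMSO (1.3 to 1.39), and the shorter ones 2.09-fold lower (1.94 to 2.25). For miR-101b-3p the shorter forms were 1.29-fold lower (1.26 to 1.33) and the longer ones 1.14-fold higher (1.1 to 1.17), a direction that turned with TMM scaling (log2 ratio -0.33), median-of-ratios scaling (-0.18) and scaling to all tags (-1.42). In CHIR99021 the longer forms were above DMSO for both arms, by 1.37-fold for miR-101a-3p (1.34 to 1.4) and 1.27-fold for miR-101b-3p (1.25 to 1.3), though scaled to all tags they lay below it, at log2 ratios of -0.48 and -0.58. The shorter forms were 1.29-fold lower for miR-101a-3p (1.23 to 1.35) and 1.44-fold lower for miR-101b-3p (1.42 to 1.47).

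Single tags showed the same. The 19-base tag of miR-101b-3p had 6772 CPM under retinoic acid, 2884 in BIO, 6420 in CHIR99021 and 9258 in DMSO, and 8146 in vitamin C and 6357 in ddH2O. It was 3.21-fold lower in BIO than in DMSO (3.12 to 3.3) and 2.23-fold higher in CHIR99021 than in BIO (2.15 to 2.3), or 1.42-fold higher (1.37 to 1.47) and not called when scaled to all tags. Counted by the most abundant tag alone, the rule would call miR-101b-3p lower for BIO over DMSO, where 11.9% of all arms are called by this count, and higher for CHIR99021 over BIO, where 16.0% are. For the other comparisons this count calls no family arm, beside 41.1% of arms for retinoic acid over DMSO, 20.6% for CHIR99021 over DMSO, 6.87% for vitamin C over ddH2O and 9.93% for ddH2O over DMSO. The 22-base tag of miR-101b-3p had 3400 CPM under retinoic acid, 3776 in BIO, 4010 in CHIR99021 and 3010 in DMSO, and 3471 in vitamin C and 4098 in ddH2O, where DMSO was the lowest library.

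The vehicles set a scale for these differences. Between ddH2O and DMSO, with no compound in either, the 19-base tag of miR-101b-3p was 1.46-fold lower (1.42 to 1.49). The longer forms were 1.35-fold higher (1.33 to 1.38). Scaled to all tags, the 19-base tag had a ratio of 0.516 and the longer forms a log2 ratio of 0.03. The shorter forms of miR-101b-3p in BIO were below both vehicle libraries, at 4831 CPM against 10782 CPM in ddH2O and 14787 CPM in DMSO. Its longer forms lay between the vehicles, at 9027 CPM against 10912 CPM in ddH2O and 8055 CPM in DMSO. Scaled to all tags they lay below both, at a log2 ratio of -0.12 for BIO over DMSO.

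The share of short tags moved in the same direction in the other microRNAs. Tags of 18 or 19 bases made up 2.95% of all microRNA tags outside the family under retinoic acid, 1.26% in BIO, 2.41% in CHIR99021 and 3.63% in DMSO, and 3.55% in vitamin C and 2.47% in ddH2O. Within miR-101b-3p the same lengths made up 46.4% under retinoic acid, 27.7% in BIO, 42.1% in CHIR99021 and 55.1% in DMSO, and 49.4% in vitamin C and 41.1% in ddH2O. DMSO, vitamin C and retinoic acid came first, in this order, and BIO last, in both. Of all tags, microRNA or not, these lengths were 14.4% under retinoic acid, 8.01% in BIO, 15.8% in CHIR99021 and 10.9% in DMSO, and 18.7% in vitamin C and 11% in ddH2O. The part of library preparation, or of tag selection by size, in the 3' ends of the family was not tested.

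In level, the share of short tags in the family was high beside other arms. Of the same 208 arms the median arm had 0.503% (BIO) to 0.999% (DMSO) of its tags at 18 or 19 bases, and 7 or 8 arms, by library, had a higher share than miR-101b-3p. Between BIO and DMSO this share differed by -27.4 percentage points for miR-101b-3p and -11.3 for miR-101a-3p, with a median of -0.527 over the arms. It was below 0 for 178 of the 208 arms, with 1 arm below miR-101b-3p and 15 below miR-101a-3p. As a ratio of shares, BIO over DMSO was 0.503 for miR-101b-3p and 0.321 for miR-101a-3p. The median was 0.422 over the 198 arms with such tags in DMSO. By that ratio 116 arms were below miR-101b-3p and 62 below miR-101a-3p, so that the family lay among the other arms. Both measures depend on the size of the share, which in DMSO was 55.1% for miR-101b-3p and 0.999% for the median arm. Whether miR-101b-3p differed more or less than other arms can therefore not be settled by these ranks.

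Some tags carried bases at the 3' end that the hairpin does not encode. Tags with 1 to 3 such bases, counted apart from the levels above, were 8.13% of miR-101a-3p under retinoic acid, 8.7% in BIO, 9.46% in CHIR99021 and 7.33% in DMSO, and 7.96% in vitamin C and 8.64% in ddH2O. For miR-101b-3p they were 7.02% under retinoic acid, 9.24% in BIO, 7.34% in CHIR99021 and 5.18% in DMSO, and 5.8% in vitamin C and 6.95% in ddH2O. They sat mainly on long forms: after base 22, 15.7% to 19.1% of miR-101b-3p tags were extended, and after base 19, 0.187% to 0.253%.

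A single A was the most common addition. It made up 4.99% (DMSO) to 6.08% (BIO) of miR-101a-3p and 2.6% (DMSO) to 4.89% (BIO) of miR-101b-3p, against 2.56% to 2.72% for the median of the 208 arms. By library, 61 (BIO) to 103 (DMSO) of these arms had a higher share than miR-101b-3p. For miR-101a-3p the number was 44 (ddH2O) to 54 (CHIR99021). A single T made up 0.907% to 1.12% of miR-101a-3p and 1.83% to 2.99% of miR-101b-3p. A single C was more frequent in CHIR99021 than in the other libraries, with 1.91% of miR-101a-3p, against 0.493% in DMSO, and 0.788% of miR-101b-3p, against 0.121% in DMSO. It was so over all microRNA arms as well, with 0.526% in CHIR99021 and 0.115% to 0.137% in the other libraries.

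By profile over the 6 libraries, the arms of the family were not each other's nearest. Likeness was measured as the root mean square difference of log2(CPM + 1) after centring, over 250 arms with a mean of at least 100 CPM. The 5 arms nearest to miR-101a-3p were miR-293-5p (0.071), miR-183-5p (0.12), miR-32-5p (0.13), miR-96-5p (0.14) and miR-291b-5p (0.15). Those nearest to miR-101b-3p were miR-148b-3p (0.099), miR-666-5p (0.1), miR-20a-5p (0.13), the shared 3p arm of Mir92-1 and Mir92-2 (0.16) and miR-195a-5p (0.16). Between the family's own arms the difference was 0.32, which put miR-101b-3p in place 51 for miR-101a-3p, and miR-101a-3p in place 61 for miR-101b-3p. These profiles use tags of all lengths. For BIO over DMSO, miR-101a-3p and miR-101b-3p had log2 ratios of -0.16 and -0.72. With tags of 20 to 24 bases they had 0.02 and -0.03. For retinoic acid over DMSO those tags kept them apart, at -0.47 and 0.1.

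Other microRNAs that share bases 2 to 7 of either start were rare in these cells. Their sequences are shown for the likeness of the seeds.
mmu-miR-144-3p: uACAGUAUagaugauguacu
mmu-miR-582-5p: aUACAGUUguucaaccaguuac
miR-144-3p, a microRNA of red blood cells, had between 1.06 and 5.49 CPM from 2 to 5 tags, and miR-582-5p between 8.57 and 16.5 CPM. Their sum was at most 22 CPM in a library, under retinoic acid, where the family had 28019 CPM. 

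Other microRNAs with reported Ezh2 target sites were also present. The list of miR-26, miR-138, miR-124, miR-214 and let-7 5p or 3p strands held 13 arms, of which 12 reached 10 CPM. For retinoic acid over DMSO, 2 were called higher and 1 lower, with a median log2 ratio of 0.0 beside 0.46 over all arms and the 40.9% of arms called. The higher ones were the miR-138-5p arm, at 709 CPM under retinoic acid and 65.9 CPM in DMSO, and the miR-26a-5p arm, at 3855 CPM under retinoic acid and 1918 CPM in DMSO. The lower one was the miR-124-3p arm, a neural microRNA, at 944 CPM under retinoic acid and 2234 CPM in DMSO.

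In the other 5 comparisons 0 of these 12 arms were called, where the shares of all arms called were 7.20% for BIO over DMSO, 18.5% for CHIR99021 over DMSO, 7.20% for vitamin C over ddH2O, 13.8% for CHIR99021 over BIO and 7.23% for ddH2O over DMSO. The list had medians between -0.27 (CHIR99021 over BIO) and 0.23 (BIO over DMSO). The whole list summed to 98053 CPM under retinoic acid, 105609 in BIO, 81501 in CHIR99021 and 92942 in DMSO, and 90129 in vitamin C and 89789 in ddH2O, most of it let-7. miR-26b-5p, at 2927 CPM under retinoic acid and 1821 CPM in DMSO, was below the 2-fold limit. Ezh2 itself is not measured by small RNA libraries.

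Markers of other cell types were present beside the family. The 12 arms of that list summed to 8736 CPM under retinoic acid, 5547 in BIO, 6645 in CHIR99021 and 4866 in DMSO, and 8695 in vitamin C and 7338 in ddH2O. Of the 9 arms of the list that reached 10 CPM for retinoic acid over DMSO, 5 were called higher and 1 lower, beside 40.9% of all arms, with a median log2 ratio of 1.11. The miR-1a-3p arm of muscle had 6259 CPM under retinoic acid and 1376 CPM in DMSO. It also differed without retinoic acid, at 2818 CPM in ddH2O and 580 CPM in CHIR99021. The neural miR-124-3p arm had 5553 CPM in vitamin C and 2939 CPM in ddH2O. The other neural arm of the list, miR-9-5p, went the other way, at 185 CPM in vitamin C and 250 CPM in ddH2O. For vitamin C over ddH2O, 0 of the 7 arms of the list that reached 10 CPM were called, beside 7.20% of all arms. miR-451a-5p of red cells ran between 3.25 and 13.7 CPM. miR-122-5p of liver had 1324 CPM in CHIR99021 and 22.4 to 54.9 CPM in the other libraries. Their part in the levels of the family was not tested, and fewer cells of a type and less RNA per cell cannot be told apart in such libraries.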

How the data were processed

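Small RNA of J1 mouse embryonic stem cells was measured in 6 libraries, 1 for each group. Per the labels' protocols, total RNA was isolated with TRIzol and 1 µg went into a TruSeq RNA kit. The deposited files list tags with raw counts; the trimming tool and filters are not given in the sources used here. The submitters' processing notes name the mm9 build; all coordinates here come from GENCODE M21 on GRCm38, to which the tags were matched by sequence.

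Tags of 18 to 26 bases that matched the 1174 hairpins exactly were counted. For each arm, tags starting within 2 bases of the start of its commonest tag were summed, which gave 1264 arms with tags. Tags matching several arms were split evenly, and tags matching rRNA, mitochondrial, snoRNA, scaRNA, snRNA or Gm42418 transcripts were left out. Ratios carry exact conditional binomial intervals, and log2 ratios a pseudocount of 0.5. Counting and calling were tested on simulated data. The data for calling held counting error alone, so spread between cultures or libraries was not part of that test.

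The members and lists were chosen with earlier results of these data known, and the division of the 3' ends after base 20 after they had been seen, as was the ratio of short-tag shares between libraries. Named were all arms of the family, its 5 most abundant tags per arm, seed relatives, the Ezh2 list and the 5 nearest profiles. Alternatives were scaling by TMM in edgeR 4.0.16, by median of ratios in DESeq2 1.42.0 and to all tags, other minimum levels, other choices of tags and the other vehicle. Analyses used Python 3.11.15, pandas 2.3.3, numpy 2.4.6, scipy 1.17.1 and R 4.3.3. Sequences of hairpins and mature strands are from RefSeq (GRCm38.p6), where both members matched by symbol.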

Additional observations from a re-analysis of the deposited data

How the results depend on the processing

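Of 64 counts of called family arms under alternatives, 59 stayed at 0. For retinoic acid over DMSO the count was 1 with TMM scaling (miR-101a-3p, lower; 36.6% of all arms called) and 2 with scaling to all tags (both lower; 64.7% of all arms). For CHIR99021 over DMSO it was 1 with scaling to all tags (miR-101b-3p, lower; 54.0% of all arms). With the most abundant tag alone it was 1 for BIO over DMSO and 1 for CHIR99021 over BIO, in both cases miR-101b-3p, whose most abundant tag is the 19-base form. TMM moved all log2 ratios of a comparison by between -0.51 (retinoic acid over DMSO) and 0.11 (BIO over DMSO), and median-of-ratios scaling by between -0.36 and 0.13 in the same comparisons. Scaling to all tags moved every log2 ratio of retinoic acid over DMSO by -1.6 and of CHIR99021 over DMSO by -0.93, since microRNA tags were 3.76% of the retinoic acid library, 6.01% of CHIR99021 and 11.4% of DMSO.

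Of 128 log2 ratios under alternatives, 12 had the opposite sign, none of them called. The intervals of the main values, which cover counting error only, left out 71 of the 128. Those inside include all ratios under the alternatives named above as no real check. They also left out 22 of 24 start shares and 9 of 12 ratios of miR-101b-3p to miR-101a-3p. Counting tags of 20 to 24 bases put miR-101b-3p at -0.03 for BIO over DMSO, against -0.72 with all lengths, and gave 0.1 for retinoic acid over DMSO and 0.21 for CHIR99021 over DMSO. The ratio of miR-101b-3p to miR-101a-3p by the most abundant tags alone was 0.585 in BIO and 2.1 in DMSO. Start shares of miR-101b-3p at base 1 were 60.9% (ddH2O) to 64.1% (DMSO) with tags of 20 to 24 bases, in place of 65.3% to 69.7%. No paired analysis was possible because each group had 1 library. Depth did not limit the 3p arms. The 5p arms had too few tags to be measured, 11 for Mir101a and 8 for Mir101b over all libraries.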
